A study of Mus musculus with 32 samples.

Results

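The 10 genes described here make proteins that carry lipids, vitamins and hormones, or the receptors that take such cargo up: Apob, Mttp, Apoa1, Apoe, Lrp2, Cubn, Amn, Rbp4, Ttr and Afp. They were chosen by name, out of 55573 genes in each table, after earlier results of the same libraries were known. Their levels and changes below are therefore a description and not independent support for a pattern. All 10 are listed in every library's table, although Afp and Ttr had no counts in some libraries.

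The visceral endoderm, the epithelium that surrounds the early mouse embryo and later lines the yolk sac, feeds the embryo before a placenta works. It packs lipid onto apolipoprotein B with the microsomal transfer protein encoded by Mttp, secretes carriers such as transthyretin, retinol-binding protein and alpha-fetoprotein, and takes maternal proteins up through the receptors megalin (Lrp2) and cubilin (Cubn), which amnionless (Amn) brings to the cell surface. Several of these genes are also used elsewhere, for example Lrp2 in the neuroepithelium, Ttr in the choroid plexus and Apoe in glia. No yolk sac tissue was sampled, so the genes are named for where they are best known and not for the cells measured.

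Measured were ESC (mouse embryonic stem cells, 129S5/SvEvBrd strain) whose Smarce1 bears either of 2 tags, MD or R42A. The product of Smarce1, BAF57, belongs to the SWI/SNF complex, which remodels chromatin. From general knowledge, MD is taken to be the mitotic degron, a tag that leads to loss of the protein at the end of cell division, and R42A to be a version of it that does not work. All groups therefore carry a tagged Smarce1, and no untagged cells were analysed. Undifferentiated ESC, grown with LIF and serum on gelatin, comprised 4 R42A clones (A04, A10, A01, A02) and 4 MD clones (09, 30, 45, 47) with 3 libraries each. Neural cells, kept for 6 days in the medium that the labels spell both RHA-B and RHB-A, comprised the R42A labels A04 and A10 and the MD labels 09 and 30 with 2 libraries each. The clone was taken as the replicate, and nothing in the labels says whether the libraries of a clone came from separate cultures.

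Total counts per library ran from 38699951 to 96424439. ESC of A04, A10, 09 and 30 form a first run of library numbers and ESC of A01, A02, 45 and 47 a second, called the first and second series below. All neural libraries form another run, and the effect of stage cannot be told apart from that of the run. Pluripotency markers summed to between 4481 and 6871 CPM in ESC libraries and to between 249 and 351 CPM in neural libraries. CPM are counts scaled to a common library total with TMM factors. Neuroepithelium markers summed to between 1652 and 1912 CPM in neural libraries, against 50.5 to 168 CPM in ESC libraries. Smarce1 RNA was 95.7 to 129 CPM in ESC clones and 228 to 299 CPM in neural clones, and as the tag acts on the protein this does not check the labels.

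The stretches just upstream of 4 of the genes are shown because these genes had the largest falls in MD neural cells among those with a promoter in the RefSeq table used (GRCm38.p6). Each is 120 bases long, written 5′ to 3′ on the gene's strand, and ends before the first annotated exon base. Capitals mark letters that match the textbook binding motifs of 2 families of endoderm factors: FOXA (TGTTTAC or TATTTAC or TGTTTGC) and HNF1 (GTTAAT), read on both strands.
Apob, chr12:7977528-7977647, plus strand: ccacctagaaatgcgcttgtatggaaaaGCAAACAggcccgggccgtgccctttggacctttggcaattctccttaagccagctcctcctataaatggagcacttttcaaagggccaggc
Apoa1, chr9:46228460-46228579, plus strand: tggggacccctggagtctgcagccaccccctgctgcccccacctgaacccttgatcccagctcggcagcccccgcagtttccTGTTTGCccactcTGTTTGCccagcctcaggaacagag
Afp, chr5:90490594-90490713, plus strand: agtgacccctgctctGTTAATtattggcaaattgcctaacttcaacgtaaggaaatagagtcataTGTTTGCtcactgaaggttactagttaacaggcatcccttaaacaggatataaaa
Amn, chr12:111270975-111271094, plus strand: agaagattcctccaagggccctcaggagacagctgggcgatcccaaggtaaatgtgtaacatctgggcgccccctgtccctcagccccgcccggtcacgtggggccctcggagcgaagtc
The Apob stretch held 1 FOXA match on the opposite strand, that of Apoa1 held 2, that of Afp 1 FOXA and 1 HNF1 match, and that of Amn none.

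Over the full windows of 250 bases before to 50 after a start, RefSeq entries were found for 9 of the 10 genes. FOXA letters occurred in windows of Apob, Mttp, Apoa1, Apoe, Afp and Rbp4, against 11.2% of all 32851 windows. HNF1 letters occurred in windows of Apoe and Afp (7.10% of all windows). The GATA letters AGATAA or TGATAA occurred for Apoa1 (18.6% of all windows), and the HNF4 letters CAAAGTCCA or CAAAGGTCA for none of the 9 (0.950% of all windows). Windows of Cubn, Amn and Lrp2 held none of these letters. Apoe has 3 windows and Rbp4 has 2, which gives them more chances of a match, and a match is only a run of letters.

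In undifferentiated ESC the genes spanned a wide range of levels. Per kilobase of annotated exon, Apoe, a lipoprotein of glia and macrophages, stood highest, at 97.3 CPM per kb in R42A and 75.1 in MD, and Lrp2 second, at 6.38 and 12.6 CPM per kb. Rbp4 followed at 1.76 and 1.90 CPM per kb, then Mttp at 0.986 and 1.29 and Cubn at 0.863 and 0.841. The plasma protein genes Afp and Ttr were near the limit of detection. Afp had 23 counts in all over 12 R42A ESC libraries and 37 over 12 MD libraries, and Ttr had 15 and 19. Both were too low to enter the ESC test.

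**Figure D1:**
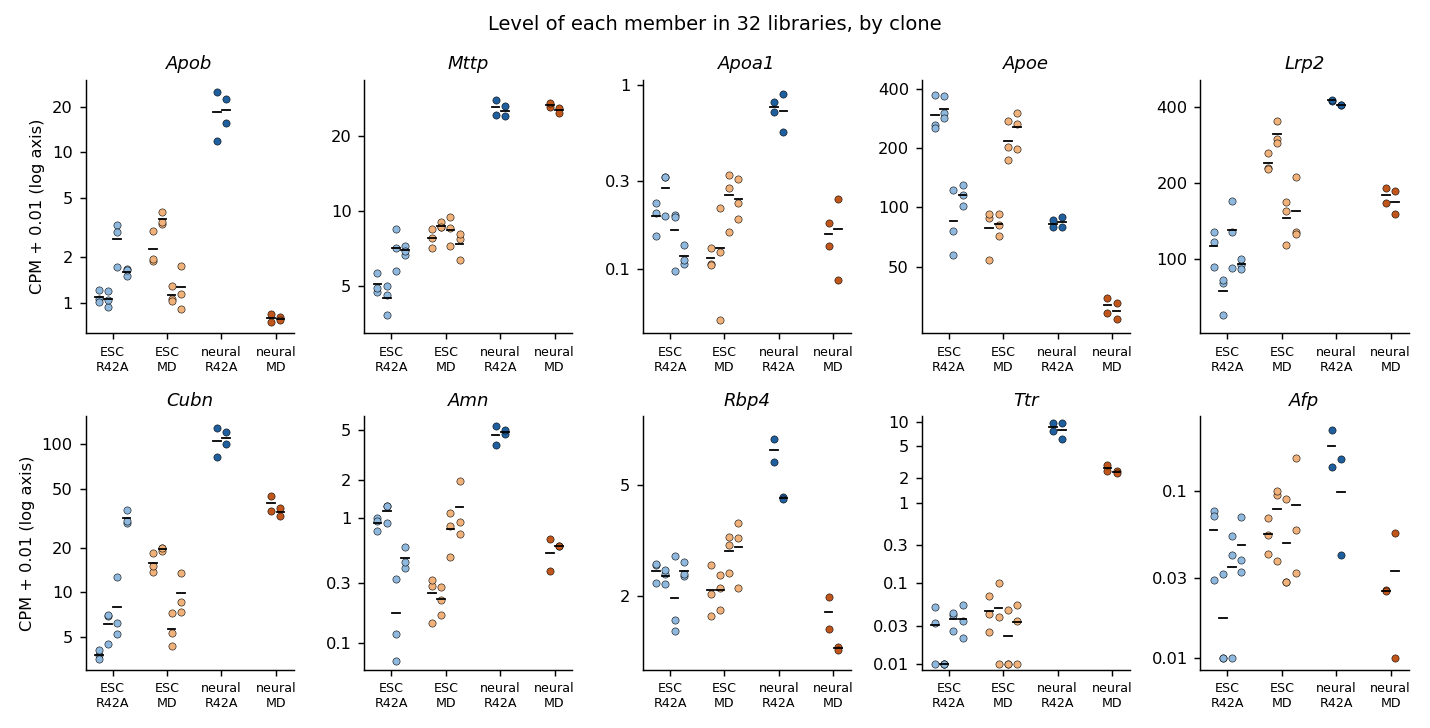
CPM plus 0.01 on a log axis for each of the 10 genes, in R42A and MD libraries of ESC and neural cells. Points are single libraries, columns of points are clones (in ESC, from the left, A01, A02, A04, A10 and 09, 30, 45, 47) and bars are means over the libraries of a clone. In neural cells the 4 MD libraries lie below all 4 R42A libraries for 8 genes (25.2% of all genes tested do so), and for Mttp and Afp they overlap.

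The ESC comparison asks whether MD clones differ from R42A clones before differentiation. Lrp2 and Mttp were higher in MD, Apoe was lower, and 5 of the 8 genes tested did not pass. That is 3 of 8 called at an adjusted p under 0.05 in edgeR, and 36.5% of all genes tested were called in either direction, so the share is near the background. The median log2 change of the 8 was 0.14, against -0.03 over all genes tested. For each of the 10 genes the libraries of MD and R42A overlapped, and 6.25% of all genes tested had libraries that did not.

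Lrp2 (ENSMUSG00000027070.14, chromosome 2, 69424340 to 69586065 in mm10) encodes megalin, a giant endocytic receptor. Its level in the 12 R42A libraries ran from 59.6 to 170.1 CPM with a median of 93.3, and in the 12 MD libraries from 114 to 354 CPM with a median of 219. The lowest MD library lay below the highest R42A library. Means over clones were 107 ± 26.5 CPM in R42A and 210.5 ± 73.4 CPM in MD (SD, n = 4 clones), a log2 change of 0.94 ± 0.18 (SE; adjusted p = 0.00399 in edgeR). Within the first series the MD clones lay at 239.8 and 300.5 CPM and the R42A clones at 98.5 and 139 CPM. In the second series MD clones lay at 146 and 156 CPM and R42A clones at 75.5 and 113 CPM. In the second series alone the log2 change was 0.69 and missed the threshold (adjusted p = 0.0843 in edgeR).

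Mttp (ENSMUSG00000028158.14, chromosome 3, 138089854 to 138144968) loads lipid onto apolipoprotein B. It ran from 3.81 to 8.43 CPM in R42A libraries, with a median of 5.71, and from 6.36 to 9.44 CPM in MD libraries, with a median of 8.27. The R42A clones of the second series were the lowest, at 4.56 and 5.20 CPM, while those of the first series, at 7.23 and 7.48 CPM, lay beside the MD clones, at 7.45 to 8.52 CPM. The log2 change of 0.42 ± 0.13 (adjusted p = 0.0285 in edgeR) was lost without any 1 of the clones 30, A01, A02, 45 or 47, with changes of 0.33 to 0.45. In the first series alone it was 0.20 (adjusted p = 0.387 in edgeR). Exons of Trmt10a and Gm43691 overlap those of Mttp on the opposite strand, and the use of strand in counting is not stated.

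Apoe (ENSMUSG00000002985.16, chromosome 7, 19696109 to 19699188) encodes apolipoprotein E, a ligand of lipoprotein receptors. Its level followed the library series more than the genotype. First-series clones lay between 79.1 and 119 CPM and second-series clones between 226 and 325 CPM, in both genotypes. Within a series the R42A clones lay at 85.0 and 119 CPM against 79.1 and 80.0 CPM in MD, and at 302 and 325 CPM against 226 and 257 CPM. The log2 change with the series as a covariate was -0.37 ± 0.10 (adjusted p = 0.0195 in edgeR). It was lost without A10, 09, A02 or 45, with changes of -0.37 to -0.22, and in the first series alone, at -0.30 (adjusted p = 0.314 in edgeR).

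Cubn (ENSMUSG00000026726.10, chromosome 2, 13276338 to 13491813), the receptor that partners megalin, varied more among R42A clones than between genotypes. Clone A10 held 32.7 CPM, against 3.85, 6.22 and 8.80 CPM in A01, A02 and A04, and all 3 libraries of A10 were high, between 29.1 and 35.6 CPM. MD clones lay at 5.88, 9.86, 15.5 and 19 CPM. As with Mttp, exons of a gene on the opposite strand, Gm13270, overlap those of Cubn. The log2 change of 0.18 ± 0.39 missed the threshold (adjusted p = 0.748 in edgeR). Without A10 it was 0.82 and passed (adjusted p = 0.0346 in edgeR), so 1 clone decides this value.

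Apob, the structural protein of lipid-rich lipoproteins, had a log2 change of 0.25 ± 0.21 in ESC and Rbp4, the plasma carrier of retinol, one of 0.09 ± 0.14. Apoa1, the main protein of high-density lipoprotein, had -0.12 ± 0.23 and Amn -0.23 ± 0.32. These 4 missed the threshold (adjusted p = 0.378, 0.647, 0.704 and 0.605 in edgeR). Amn, like Apoe, stood apart by series, at 0.163 to 0.489 CPM in first-series clones and 0.853 to 1.23 CPM in second-series clones. Apob lay the other way, at 1.66 to 3.44 CPM in the first series and 1.07 to 1.27 CPM in the second.

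Between the 3 libraries of a clone, some of the genes moved together. After each clone's mean was taken off the log2 CPM of the 24 ESC libraries, Apob, Mttp and Lrp2 varied in the same direction, with Pearson r of 0.72 for Apob and Mttp, 0.78 for Mttp and Lrp2 and 0.65 for Apob and Lrp2 (Spearman rho 0.68, 0.70 and 0.58). Apoe and Rbp4 also varied together (r = 0.74, rho = 0.70), and both varied against the first 3: Apob with Rbp4 had r = -0.86 (rho = -0.82), Mttp with Apoe r = -0.77 (rho = -0.77) and Lrp2 with Apoe r = -0.72 (rho = -0.66). The signs also went with gene length. Apob, Mttp and Lrp2 have 13.9, 6.21 and 16.7 kb of annotated exon, and Apoe and Rbp4 have 2.14 and 1.34 kb. Cubn, at 14.9 kb, was positive with the first 3, and Amn and Apoa1, at 1.84 and 1.24 kb, were negative with each. The part of length in these values was not tested. These pairs were picked after all 45 were seen, and the libraries of a clone share their cells, so the values are a description with no test.

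**Figure D2:**
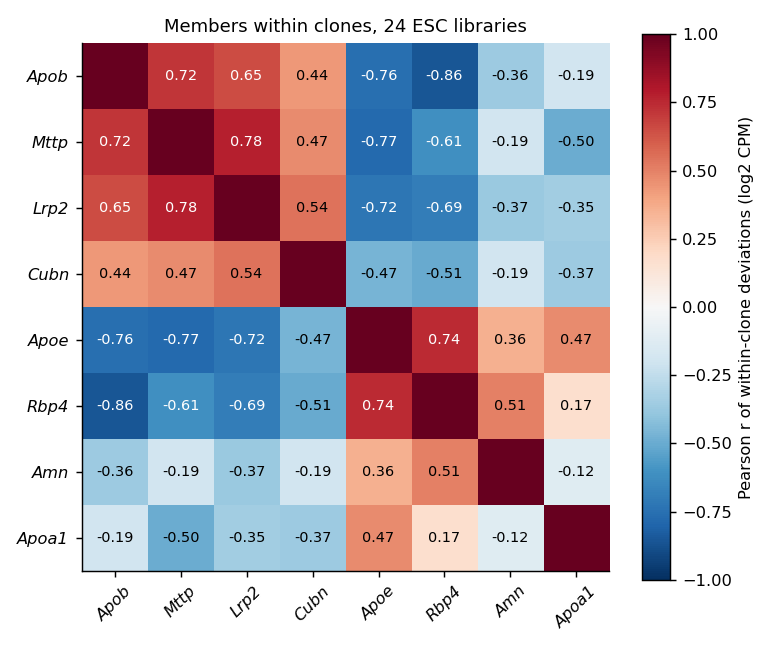
Pearson r between genes of their deviations from the clone mean (log2 CPM), over 24 ESC libraries of 8 clones, for the 8 genes tested in ESC. Red is positive and blue negative. Apob, Mttp and Lrp2 form a positive block with r of 0.65 to 0.78, and Apoe and Rbp4 are negative with each of the 3, with r of -0.61 to -0.86. Apob, Mttp and Lrp2 also have more annotated exon than Apoe and Rbp4.

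The library numbers of the labels moved with Lrp2. In 8 of 8 ESC clones the library numbered 3 had the highest Lrp2 and the library numbered 2 the lowest, in both series and both genotypes. In clone A04, for instance, Lrp2 was 127, 92.2 and 170.1 CPM in libraries 1, 2 and 3, while Apoe was 76.0, 123 and 57.5 CPM. No other gene described here had the same order in all 8 clones. Library 3 was highest in 6 clones for Ttr, 5 for Apob and for Mttp, 4 for Cubn and 2 for Apoe. In 5 of the 8 clones the library with the highest Lrp2 had the lowest Apoe, and in A10, 09 and 30 it did not. After the mean of each library number within its series was also taken off, r was -0.84 for Lrp2 with Apoe, -0.88 for Apob with Rbp4 and 0.56 for Mttp with Lrp2. Without the 2 libraries farthest from the median of the first gene of each pair, r was -0.59 for Apoe with Lrp2, -0.76 for Apob with Rbp4 and 0.67 for Mttp with Lrp2. Marker genes of neural and pluripotent cells had no common direction. Among 8 neuroepithelium markers the within-clone r with Lrp2 ran from -0.85 for Msi1 to 0.85 for Pax6, and among 8 pluripotency markers from -0.74 for Dppa5a to 0.39 for Zfp42. What differed between the numbered libraries was not tested.

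**Figure D3:**
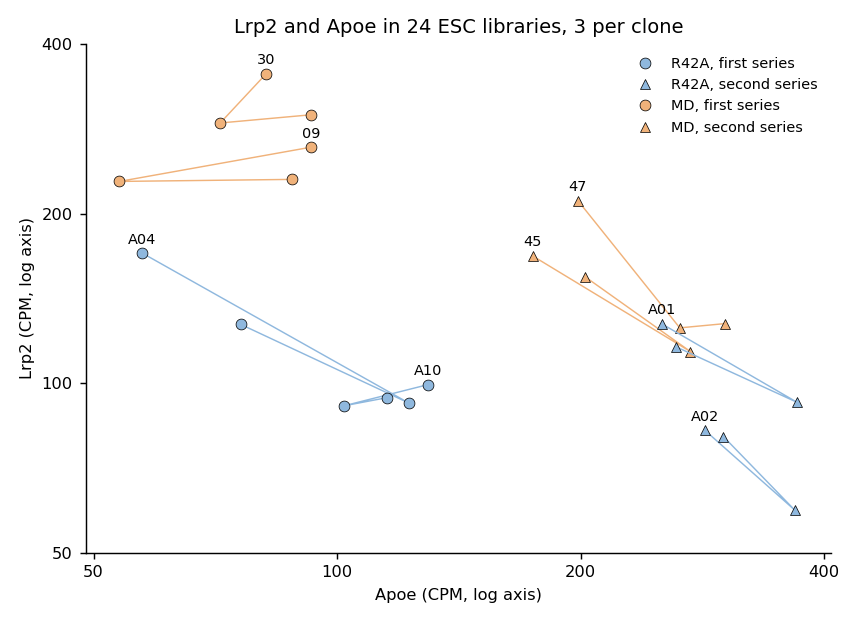
Lrp2 against Apoe in CPM, both on log axes, in the 24 ESC libraries. Points are libraries, lines join libraries 1, 2 and 3 of a clone, and circles and triangles are the first and second series. Second-series clones lie to the right, at 226 CPM of Apoe or more as clone sums, and in 4 of 8 clones the order of Lrp2 is the full reverse of that of Apoe.

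The next comparison asks how the genes change when R42A cells, with the tag in its control form, are turned to neural culture. Of the 10, 9 were higher in neural cells than in ESC of the same labels and none was lower, with Ttr, Amn and Apob furthest up. In edgeR 37.9% of all genes tested were called higher in this comparison. The median log2 change of the 10 was 2.10, against -0.06 over all genes.

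Ttr (ENSMUSG00000061808.4), which carries thyroid hormone and the retinol-binding protein, rose from the limit of detection. The 6 ESC libraries of A04 and A10 held 12 counts in all, and the 4 neural libraries held 1910, at 9.53, 7.67, 9.71 and 6.14 CPM. No ESC library of either genotype exceeded 0.0910 CPM, so the groups lay far apart. The log2 change was 8.17 ± 0.20 (adjusted p = 8.68e-08 in edgeR), and its size rests on those few ESC counts.

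The endocytic receptors rose together. Cubn was at 128, 81.3, 121 and 99.9 CPM in the neural R42A libraries, a log2 change of 2.32 ± 0.52 (adjusted p = 0.00453 in edgeR). This change was 1.71 without A04 and 3.50 without A10, and with no filter on low counts it missed the threshold (adjusted p = 0.0502 in edgeR). Amn (ENSMUSG00000021278.7, chromosome 12, 111271095 to 111276426), which carries cubilin to the membrane, was at 5.32, 3.76, 4.59 and 4.98 CPM, with a log2 change of 3.77 ± 0.44 (adjusted p = 0.000154 in edgeR). Lrp2 was at 425, 429, 409 and 407 CPM, all above the highest ESC library, with a log2 change of 1.76 ± 0.17 (adjusted p = 5.31e-05 in edgeR). Per kilobase of exon Lrp2 stood second to Apoe, at 24.7 against 38.4 CPM per kb, and Cubn followed at 7.10.

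Among the lipoprotein genes, Apob (ENSMUSG00000020609.14, chromosome 12, 7977648 to 8016835) reached 25.3, 11.9, 22.4 and 15.7 CPM in the neural R42A libraries, where it had been at 2.75 and 1.66 CPM in the 2 ESC clones. Its log2 change was 3.04 ± 0.29 (adjusted p = 5.13e-05 in edgeR). Mttp rose by 1.74 ± 0.08 on the log2 scale, to 25.2 ± 0.303 CPM (SD, n = 2 clone labels). Apoa1 (ENSMUSG00000032083.8, chromosome 9, 46228580 to 46230466) rose by 2.44 ± 0.25 but stayed at 0.729 ± 0.0112 CPM. Apoe was the exception, at 82.2 ± 1.85 CPM after 85.0 and 119 CPM in the ESC clones, with a log2 change of -0.35 ± 0.14 (adjusted p = 0.0521 in edgeR). With the clone label as a block across the stages its change was -0.33 and passed (adjusted p = 0.0380 in edgeR). It also passed without A04, at -0.56, and was -0.11 without A10.

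Rbp4 (ENSMUSG00000024990.13, chromosome 19, 38116629 to 38125281) rose by 1.23 ± 0.24, to 7.29 and 6.00 CPM in the libraries of A04 and 4.51 and 4.45 CPM in those of A10, and the change without A04 was 0.75. Afp (ENSMUSG00000054932.6, chromosome 5, 90490737 to 90508907), the fetal counterpart of albumin, had 30 counts in the 4 neural R42A libraries, at 0.130, 0.224, 0.0316 and 0.145 CPM. Its log2 change of 1.89 ± 0.51 (adjusted p = 0.0111 in edgeR) was lost without A04, at 1.05 (adjusted p = 0.238 in edgeR). In DESeq2 it did not pass either (adjusted p = 0.0976). Afp RNA, which marks yolk sac endoderm in the embryo, was thus at the edge of detection in every group.

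In MD cells the same step of culture gave another picture. Ttr, Mttp and Amn rose, Apob, Apoe and Lrp2 fell, and Apoa1, Rbp4, Cubn and Afp did not pass. That is 3 of 10 higher, with 40.3% of all genes tested called higher, and 3 of 10 lower, with 41.0% of all genes called lower. Ttr rose by 6.07 ± 0.19 and Mttp by 1.58 ± 0.08 on the log2 scale (adjusted p = 2.06e-07 and 1.63e-06 in edgeR). Apob fell by 1.96 ± 0.30, Apoe by 1.47 ± 0.14 and Lrp2 by 0.73 ± 0.17 (adjusted p = 0.00066, 5.23e-05 and 0.00484 in edgeR). The Lrp2 call was lost without 30, at a log2 change of -0.52, and the Amn call (1.16 ± 0.45, adjusted p = 0.0457 in edgeR) without 09 or 30, at 1.34 and 0.99. Cubn had a log2 change of 1.03 ± 0.50 and passed without A04 or A10 (adjusted p = 0.00109 and 0.000683 in edgeR), as did Rbp4, at -0.55 in both.

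**Figure D4:**
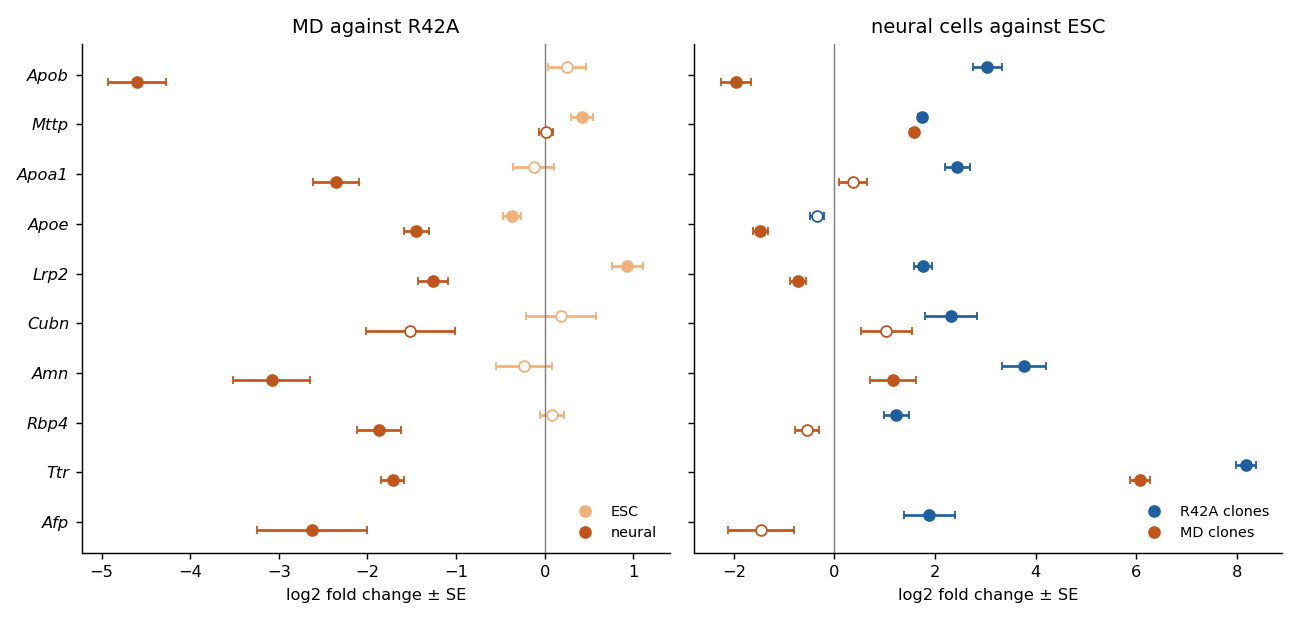
Log2 fold changes with their SE for the 10 genes. On the left MD against R42A in ESC (light) and neural cells (dark), on the right neural cells against ESC in R42A (blue) and MD (orange). Filled points passed an adjusted p under 0.05 in edgeR and open points did not. Apob lies furthest left in neural cells, at -4.60, while Mttp lies at 0.02. Afp and Ttr have no ESC point because they were too low to test.

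The comparison of MD with R42A in neural cells shares these libraries with both comparisons above, so its values restate part of them. Of the 10 genes, 8 were lower in MD and none was higher, Cubn and Mttp not passing. In edgeR 16.3% of all genes tested were called lower in MD neural cells. The median log2 change of the 10 was -1.79, against -0.002 over all genes. For 8 of the 10, all but Mttp and Afp, every MD library lay below every R42A library, as it did for 25.2% of all genes tested. These are bulk samples, so fewer cells of a type and less RNA per cell cannot be told apart.

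Apob had the largest difference. Its level was 0.833, 0.729, 0.787 and 0.754 CPM in the 4 MD libraries, where the lowest R42A library had 11.9 CPM, and the group means were 24.3-fold apart in the fit. The log2 change was -4.60 ± 0.32 (adjusted p = 0.000173 in edgeR), and it passed in every alternative run. The R42A libraries themselves differed by up to 25.3 against 11.9 CPM within the label A04, a spread much smaller than the gap between genotypes.

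Other lipoprotein genes differed less, and the assembly factor Mttp did not pass. Apoe was at 28.9, 34.6, 27 and 32.7 CPM in MD against 79.1 to 89.8 CPM in R42A, a log2 change of -1.45 ± 0.14 (adjusted p = 0.000531 in edgeR). Apoa1 was at 0.123, 0.167, 0.0772 and 0.230 CPM in MD, from 35 counts in all, against 0.545 to 0.886 CPM in R42A, a log2 change of -2.36 ± 0.26 (adjusted p = 0.000793 in edgeR). Mttp, the partner that Apob needs for secretion, was at 26.2, 26.9, 25.8 and 24.6 CPM in MD and at 27.9, 24.1, 26.4 and 24 CPM in R42A. Its groups overlapped fully, with a log2 change of 0.02 ± 0.08 (adjusted p = 0.911 in edgeR).

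Among the receptor genes, Lrp2 and Amn were lower in MD and Cubn missed the threshold. Lrp2 was at 166, 191, 186 and 150.4 CPM in MD against 407 to 429 CPM in R42A, a log2 change of -1.26 ± 0.17 (adjusted p = 0.00162 in edgeR). This is the opposite sign to its ESC change. Amn was at 0.663, 0.364, 0.587 and 0.587 CPM in MD against 3.76 to 5.32 CPM in R42A, with a log2 change of -3.08 ± 0.43 (adjusted p = 0.00203 in edgeR). Cubn was at 35.4, 44.7, 37.2 and 32.8 CPM in MD against 81.3 to 128 CPM in R42A. Although its neural groups did not overlap, its log2 change of -1.51 ± 0.50 missed the threshold (adjusted p = 0.0561 in edgeR), in a fit that takes part of its spread from the ESC clones. The ESC clones A04 and A10 in that fit lie at 8.80 and 32.7 CPM. Cubn passed in DESeq2 (adjusted p = 0.0328), where 8436 of 23006 genes did. It also passed in edgeR on the neural clone sums alone. There 13643 of 20285 genes passed, against 8030 of 23844 in the main fit, so that call says little about Cubn. Over all alternatives its adjusted p ran from 3.38e-11 to 0.335.

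The secreted carriers were lower too. Ttr was at 2.44, 2.91, 2.42 and 2.35 CPM in MD against 6.14 to 9.71 CPM in R42A, a log2 change of -1.72 ± 0.13 (adjusted p = 0.000225 in edgeR). Rbp4, which travels in plasma bound to transthyretin, was at 1.97, 1.52, 1.31 and 1.28 CPM in MD against 4.45 to 7.29 CPM in R42A, a log2 change of -1.87 ± 0.25 (adjusted p = 0.00164 in edgeR). Afp had 5 counts in the 4 MD libraries and 30 in the 4 R42A libraries. Its log2 change of -2.63 ± 0.62 (adjusted p = 0.0164 in edgeR) was lost without A04, 09 or 30 (adjusted p = 0.0799, 0.198 and 0.138 in edgeR), and the libraries overlapped.

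With only 2 MD labels the count of called genes depended on each. It was 5 of 10 without 09 and 4 of 10 without 30, where Apob, Apoa1, Apoe and Ttr passed in both. Amn and Rbp4 lost their call in either case (adjusted p = 0.0871 and 0.0792, and 0.0501 and 0.0695 in edgeR), and Lrp2 without 30 (adjusted p = 0.0533 in edgeR). Over all genes the calls dropped likewise, from 8030 to 1600 and 1538. The log2 changes themselves stayed close, for Amn at -2.99 and -3.18 and for Lrp2 without 30 at -1.23.

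The difference of the MD effect between the stages, neural minus ESC, was tested in the fit of the 4 labels present at both. It was negative for all 10 genes and passed for 8 of them, with 11.1% of all genes tested called negative. Apob had the largest value, at -5.00 ± 0.42, and Lrp2, whose MD effect among these labels was 1.22 ± 0.17 in ESC and -1.26 in neural cells, had -2.49 ± 0.24 (adjusted p = 0.000682 and 0.001 in edgeR). Afp, Amn, Ttr, Apoa1, Rbp4 and Apoe had differences between -3.35 and -1.12, with adjusted p between 0.00524 and 0.0274 in edgeR. Mttp, at -0.16 ± 0.11, and Cubn, at -1.28 ± 0.70, missed the threshold (adjusted p = 0.341 and 0.238 in edgeR). Leaving out A10 gave -2.47 for Cubn, which passed (adjusted p = 0.000983 in edgeR). With the clone label as a block Afp did not pass either (-3.30, adjusted p = 0.0634 in edgeR). Without 09 or without 30 none of the 10 passed in edgeR, where 77 and 114 genes of all tested did. The log2 difference of Apob was then -5.30 and -4.63 (adjusted p = 0.0516 and 0.0579 in edgeR).

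Genes of the same pathways were followed in lists, which like the 10 genes were drawn up with earlier results known. In neural cells 17.4% of all genes tested were called higher in MD, and 16.3% lower as above, against which the counts of each list can be read. Among 8 other apolipoproteins tested in neural cells, 5 were lower in MD and 1 was higher, with a median log2 change of -2.75. Several had few counts, so this median rests partly on genes near the limit of detection. Over the R42A and MD libraries Apoa4 had 120 and 3 counts, Apoc2 32 and 4, Apoa2 31 and 4 and Apoc4 2 and 0. Clu had 7900 and 1460. Apoa4, which travels on chylomicrons and high-density lipoprotein, fell by 5.32 ± 0.53 (adjusted p = 0.00054 in edgeR), from 0.515 ± 0.0407 to 0.0125 ± 0.00699 CPM (SD, n = 2 clone labels). Apoc2, the activator of lipoprotein lipase, fell by 3.02 ± 0.69, from 0.137 to 0.0163 CPM. Of 14 genes of lipoprotein assembly and secretion, 2 were higher and 3 lower, with a median of -0.12. Here Apobec1, the enzyme that edits Apob RNA, rose by 1.81 ± 0.16, and Dgat2, which makes triglyceride, fell by 0.59 ± 0.14.

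Of 19 lipoprotein receptors and lipid transfer genes, 2 were higher and 8 lower in neural MD cells, with a median of -0.48. Lcat, which esterifies cholesterol on lipoproteins, fell by 2.21 ± 0.26 on the log2 scale. Of 18 endocytosis partners of cubilin and megalin, 1 was higher and 9 were lower, with a median of -0.51, among them Fcgrt, the neonatal Fc receptor (-1.04 ± 0.17). Dab2, the megalin adaptor, had -1.20, which missed the threshold (adjusted p = 0.0585 in edgeR). Of 7 retinoid genes 1 was higher and 3 lower. Stra6, the membrane receptor of retinol-binding protein, fell by 1.40 ± 0.18. Lrat, which stores retinol as ester, rose by 2.33 ± 0.68 near the limit of detection, from 4 counts in the R42A libraries to 22 in the MD libraries. Of 13 other secreted carriers of liver and yolk sac, 1 was higher and 4 were lower, with a median of 0.01. Trf, which encodes transferrin, fell by 2.56 ± 0.45 and Ahsg, which encodes fetuin-A, by 2.69 ± 0.40. Both were low, with 96 and 86 counts in the R42A libraries and 17 and 14 in the MD libraries.

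**Figure D5:**
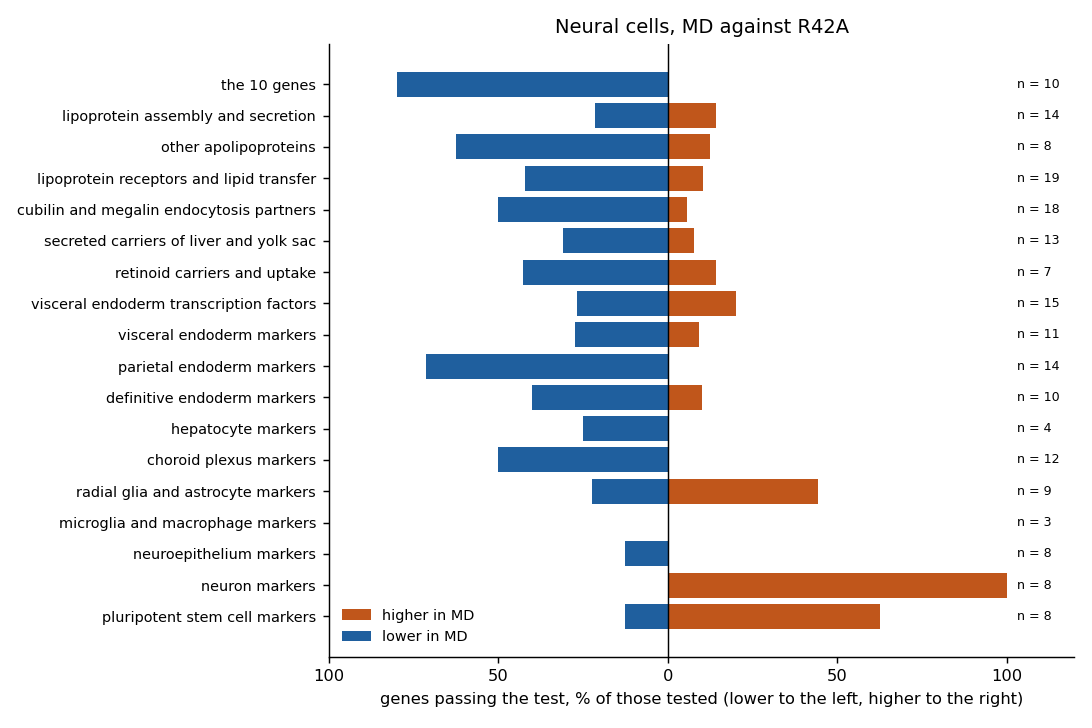
Share of the genes tested in each list that passed an adjusted p under 0.05 in edgeR, lower in MD neural cells to the left and higher to the right, with the number tested. The 10 genes described here are at the top, with 8 lower, and parietal endoderm markers, with 10 of 14 lower, and neuron markers, with 8 of 8 higher, stand out below.

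Markers of other cell types moved with the genotype in the same neural libraries. Parietal endoderm markers, which encode basement membrane proteins among others, were lower in MD for 10 of 14 and higher for none. Their sums ran from 4706 to 5610 CPM in R42A libraries and from 1812 to 2114 CPM in MD libraries. None of the 14 was at 0 in all libraries of a group. Thbd fell by 3.0 ± 0.32 and Col4a1 by 1.78 ± 0.32. Markers of the choroid plexus, a tissue known for Ttr, were lower for 6 of 12 and higher for none. They summed to 227 to 243 CPM in R42A libraries against 137 to 145 CPM in MD libraries. Most of that was Otx2, with means of 157 CPM in R42A and 95.7 CPM in MD. In neural R42A cells Clic6 had 39.6 CPM, while Kl, Kcne2, Kcnj13 and Mfrp were near 0, at 0.0473, 0.0213, 0.133 and 0.317 CPM. Folr1, a folate receptor, fell by 1.98 ± 0.18, from 18.3 ± 0.487 to 4.64 ± 0.502 CPM (SD, n = 2 clone labels). Neuron markers were higher in MD for 8 of 8, with sums of 716 to 834 CPM in R42A and 2048 to 2145 CPM in MD. The part of these markers in the differences of the 10 genes was not tested.

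For the visceral endoderm itself the calls were mixed, while the median changes were negative. Of its 15 transcription factors tested, 3 were higher and 4 lower in neural MD cells, with a median log2 change of -0.76. Of 11 other markers 1 was higher and 3 were lower, with a median of -0.94. Creb3l3, a factor of lipoprotein genes, fell by 1.82 ± 0.25 and Hnf4a, a regulator of liver and endoderm genes, by 1.36 ± 0.17. Ihh, a signal from visceral endoderm, fell by 1.54 ± 0.18, from 12.1 to 4.17 CPM. Eomes rose by 1.61 ± 0.10 and H19, an imprinted RNA, by 1.66 ± 0.25. Summed, the transcription factors came to 175 to 211 CPM in R42A libraries against 141 to 162 CPM in MD libraries. The other markers went the opposite way, to 247 to 283 CPM against 326 to 369.9 CPM. The rise of that second sum rests on H19, whose mean level was 71.6 CPM in R42A and 226 CPM in MD. Pdgfra, for instance, had 111 and 66.3 CPM. Hepatocyte markers summed to at most 1.03 CPM and microglia markers to at most 2.47 CPM in any neural library. The defining genes of these cells were thus near 0.

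In ESC the pathway lists showed no common direction. Of all genes tested in ESC, 17.1% were called higher in MD and 19.4% lower. Of 13 assembly genes 5 were higher and 2 lower in MD, led by Soat1 (0.94 ± 0.27) and Cideb (0.82 ± 0.23), both of lipid storage. Of 19 receptor and transfer genes 1 was higher and 6 were lower, with Lcat at -1.15 ± 0.20 and the cholesterol exporter gene Abca1 at -1.13 ± 0.10. Among 18 endocytosis partners 7 were higher and 2 lower, with Lrpap1, the chaperone of megalin, at 0.68 ± 0.09 and Gipc1 at -0.88 ± 0.06. Hnf4a fell by 2.09 ± 0.18 and H19 rose by 3.60 ± 0.46 in ESC, where the 8 of the 10 genes that were tested had changes of -0.37 to 0.94.

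Across the 12 clone sums (8 in ESC, 4 in neural cells) the genes most like each member by Pearson r of log2 CPM were listed. Apob was nearest to Stx3, a syntaxin gene, with r = 0.97, and Rnf225 with 0.96. Amn went with AC137853.2 (0.97), Cubn to Nxf7 and Tfec (0.99 for both) and Ttr to Rab22a and Nepn (0.99 for both). Mttp went with 4930570G19Rik and Unc13b (0.99 for both) and Apoe with Cystm1 and C77080 (0.99 for both). Apoa1 was nearest to Mrps6 and Fcgbp (0.97 and 0.96), Rbp4 to Kcnk1 and to the laminin gene Lamc1 (0.96 and 0.95), and Lrp2 to Mfap3l and Actg2 (0.96 for both). Afp had the weakest partners, Tspan8 and C3ar1, at 0.88 and 0.84. The 12 points share 2 stages and 3 library series, and the values are a description.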

How the data were processed

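RNA-seq was deposited as 1 table of expected counts per library, 32 in all, which the authors did not normalise. Per the submitters' processing notes, the tools were RSEM 1.3.0, STAR 2.7.1a, Trim Galore 0.60 and DESeq2, and the build was mm10; the annotation release and the use of strand are not given in the sources used here. Per table, 92 entries that are not gene identifiers were left out, and gene positions come from GENCODE M21. Expected counts were rounded and summed per clone. Genes kept by filterByExpr (minimum count 10) were tested with the quasi-likelihood method of edgeR 4.0.16 under R 4.3.3 after TMM scaling. P-values were adjusted by Benjamini-Hochberg over all genes tested. ESC sums were fitted with the library series as a covariate, and the 8 sums of the 4 labels present at both stages in 1 fit of 4 groups. The fits were tested on simulated data.

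Alternatives were DESeq2 1.42.0, other scalings, no filter, single libraries, blocks and leaving out clones. Clone labels pair ESC with neural sums as the same line by name, although the differences between the clones of a genotype correlated across stages at only -0.0195 in R42A and 0.017 in MD. Correlations used log2 CPM with a prior count of 2. The genes and lists were chosen with earlier results of these data known. Named are all members, at most 2 genes per list and comparison with the largest change among those passing, and for each member the 2 genes of highest r; the within-clone values of Pax6, Msi1, Zfp42 and Dppa5a and the neural values of Hnf4a and Dab2 were added after they were seen. A p-value sets the difference between groups against the spread between clone sums, which may be partly technical. In the fit of 4 groups the ESC and neural sums share 1 estimate of that spread. Some genes that the naming rule picks are not reported here.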

Additional observations from a re-analysis of the deposited data

Results flagged for a closer look

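The log2 change of MD against R42A differed between neural cells and ESC, by a test of the difference itself in edgeR, for Apob (-5.00), Afp (-3.35), Amn (-2.60), Lrp2 (-2.49), Ttr (-2.10), Apoa1 (-2.06), Rbp4 (-1.78) and Apoe (-1.12). Of these, Lrp2 was higher in MD among ESC clones and lower among neural clones. In 1 case a library stood apart from the other libraries of its group: Ttr in library 2 of the MD neural label 09 was at 2.91 CPM, and the other 3 MD neural libraries were at 2.35 to 2.44 CPM. Chance flags about 1 in 20 groups in this way, and 40 groups were examined.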

How the results depend on the processing

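Counts of members passing the test moved in these settings. In ESC, 3 passed, against 1 in the first series alone and 1 without the series term, and 1 to 3 when 1 clone was left out. Calls over all genes moved too. In ESC 7862 of 21567 genes passed, against 1769 of 22578 in the first series alone and 3084 of 21567 without the series term. In neural cells 8 passed, against 4 to 9 when 1 label was left out, and for the difference between stages 8 passed, against 0 to 9. Signs that reversed belong to small changes that did not pass. In ESC, Apoa1 was 0.077 and Amn 0.0304 in the second series alone, Rbp4 was -0.069 and Cubn -0.21 in the first, and Cubn was -0.016 without the series term. When 1 clone was left out, Cubn ran from -0.058 to 0.82, Amn from -0.43 to 0.21, and Mttp in neural cells from -0.021 to 0.0505. The cause was not tested, except that a left-out label leaves 1 sum in its group, which is then assumed to vary like the other groups. The samples were not taken as paired by library number, since not every same-numbered pair of MD and R42A libraries deviated together: r ran from -0.353 to 0.317 (median 0.0487) in the first series and from -0.0366 to 0.233 (median 0.135) in the second, against medians of -0.0386 and -0.0295 for other numbers. Lrp2 did follow the number in 8 of 8 ESC clones. With the replicate block on single libraries 3 members passed in ESC, 8 in neural cells and 7 for the difference between stages, the same counts as with libraries without it. Over all genes, 10111 of 18306 passed with that block in ESC, 8467 of 21321 in neural cells and 7179 of 21321 for the difference. The clone block changed no call other than those of Apoe in R42A and Afp for the difference between stages. Counts of Afp and Ttr in ESC limit any statement on them there.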
